A study of Mus musculus with 4 samples.

Results

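The AP-1 genes Fos, Fosb, Fosl1, Fosl2, Jun, Junb, Jund and Atf3 were followed in total RNA of MLg cells, a mouse lung fibroblast line. Members were the rows of the deposited expression table that carry these 8 symbols. They made up 8 of 12767 genes and 10 of 25388 transcripts, and for each gene the transcript with the highest mean level over the libraries was used. There were 4 conditions: a negative control antagomiR (control), an antagomiR against miR-9-5p (loss of miR-9 function, miR-9-LOF), the control antagomiR followed by TGFB1, and the miR-9-5p antagomiR followed by TGFB1. An antagomiR is an antisense oligonucleotide that blocks a microRNA, and TGFB1 is a cytokine that activates fibroblasts. All cells were transfected, so no library stands for untouched MLg cells. The treatment protocol states 60 nM antagomiR, harvest at 24 h and 5 ng/ml human TGFB1 for the last 4 h. The series' design text instead states 10 nM and 48 h, and the conflict remained unsettled. Each condition had 1 library of 1 cell line, nothing says that the libraries came from separate cultures, and no test between conditions was made.

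AP-1 is a dimer of basic leucine zipper proteins that binds short DNA elements in promoters and enhancers. JUN proteins pair with each other or with FOS proteins, whereas FOS proteins need a JUN partner. Fos, Fosb, Jun and Atf3 belong to the immediate early and stress-induced genes, whose RNA rises and decays quickly after a stimulus. In fibroblasts AP-1 dimers regulate matrix proteases, their inhibitors and growth control genes.

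The microRNA that was blocked is given with its seed, bases 2 to 8, in capitals, because the seed is the part that pairs with a target. The same mature sequence comes from Mir9-1 on chromosome 3, Mir9-2 on chromosome 13 and Mir9-3 on chromosome 7 (RefSeq, GRCm38.p6).
mmu-miR-9-5p: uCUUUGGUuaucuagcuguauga
The complement of the seed, ACCAAAG, occurred 0 times in the longest annotated 3′ UTR of each of the 8 genes (GENCODE vM21), and 0 times in the rest of these transcripts. Of 21022 coding genes, 12.2% had at least 1 such match in the 3′ UTR. The AU-rich pentamer ATTTA, which forms part of decay elements in early response RNAs, was present in the 3′ UTR of all 8 genes, against 65.2% of coding genes. Fosl2 had 8 copies in 4653 bases, Fos had 4 in 815, Jun had 4 in 1233 and Atf3 had 3 in 1186. Fosb, Fosl1 and Jund had 1 copy each and Junb had 2. These are matches of letters on the sense strand and were not measured as sites.

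The promoters of 4 members are shown because AP-1 genes are themselves bound by CREB, ATF and AP-1 proteins. The 30 bases hold the TGACG element, or in Jun the TGACATCA element, that is nearest to the annotated start, in capitals (CGTCA marks TGACG on the other strand). The windows lie on GRCm38.p6 (mm10) at chr12:85473812-85473841 on the plus strand for Fos, chr4:95052249-95052278 on the minus strand for Jun, chr8:84978837-84978866 on the minus strand for Junb and chr1:191183334-191183363 on the minus strand for Atf3.
Fos: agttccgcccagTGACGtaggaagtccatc
Jun: aagcctcggggTGACATCAtgggctatttt
Junb: gcttcctgacagTGACGcgagccgcctcct
Atf3: cctggaagctattaatagcattaCGTCAgc
The capitals begin 66 bases before the start in Fos, 45 in Jun, 106 in Junb and 7 in Atf3. In the 250 bases before the start, on both strands, TGACG was found in Fos, Fosb, Junb and Atf3, 4 of the 7 members with an entry among the RefSeq promoters, against 17.8% of 32851 such windows. The Fosb window reaches into the annotated gene, so its match is counted but not printed. TGACATCA, which does not contain TGACG, was found in Jun and in 2.93% of windows. The consensus AP-1 element TGANTCA was found in 0 of the 7 members and in 6.75% of windows, and the CArG box in 0 of 7 and 1.47%. Bases farther upstream than 250 were not searched, so elements there would be missed. TATAAA on the sense strand was found in Fos, 33 bases before the start, and in 7.59% of windows. GGGCGG was found in 5 of the 7 and in 32.7% of windows. Fosl1 was matched to no promoter entry.

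The genes lie on GRCm38.p6 at chr12:85473890-85477274 (Fos), chr7:19302696-19310118 (Fosb), chr19:5447698-5455938 (Fosl1), chr5:32136472-32157840 (Fosl2), chr4:95049036-95052222 (Jun), chr8:84976909-84978748 (Junb), chr8:70697739-70700616 (Jund) and chr1:191170296-191183333 (Atf3). Reads were counted over the exons on both strands. In GENCODE, exons of Fosl1, Jun and Jund overlap exons of another gene on the opposite strand. Ccdc85b covers 1163 bases of Fosl1, which equal 68.5% of the Fosl1 length used for counting. Junos covers 232 bases of Jun and Gm11175 covers 877 bases of Jund, and neither was in the expression table. Without strand, reads from both strands in these stretches cannot be told apart.

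The library totals were 27416665 reads for control, 14719887 for miR-9-LOF, 21807187 for TGFB1 and 19019174 for TGFB1 with miR-9-LOF. Levels are given as RPKM, reads scaled to transcript length and library total, after removal of the 1 that the authors had added. In the same order, the 3 abundant transcripts Rn45s, Mir6236 and Lars2 took 19.2%, 34.1%, 16.4% and 28.9% of the counts. This share was higher in both miR-9-LOF libraries, and RPKM of all other genes are relative to totals that include it. With 1 library per condition, the treatment and the preparation of each library cannot be told apart here. Of the fibroblast markers, 9 of 10 were in the table, with summed levels of 1983 to 3463 RPKM. Of the epithelial markers Krt8 alone was in the table, at 0.281 RPKM or less, and of the leukocyte markers Cd68 and Lyz2 summed to 1.74 to 2.78 RPKM.

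At this point in the culture the RNA of the AP-1 genes was mostly Junb, Fosl1, Fosl2 and Jun. Junb, Fosl2, Fosl1 and Jun lay between 15.2 and 40.1 RPKM in every library, and Jund between 6.10 and 7.96. Fos, Fosb and Atf3 lay at 1.38 RPKM or less. In the control library Junb was highest at 28.6 RPKM, followed by Fosl2 at 22.4, and the 95% Poisson intervals of these neighbours did not overlap. Fosl1 at 20.0 and Jun at 18.2 had overlapping intervals, and so did each neighbouring pair of Fos at 0.746, Atf3 at 0.444 and Fosb at 0.184. In the miR-9-LOF library Fosl1 and Junb stood together at the top, at 32.8 and 32.4 RPKM. In the TGFB1 library Junb at 36.6 RPKM was clear of Jun, Fosl2 and Fosl1, which overlapped each with its neighbour. With both treatments Junb at 40.1 RPKM was above Fosl1 at 23.6, and Jun and Fosl2 overlapped at 18.3 and 16.9. Reads carry no molecular identifiers, and all intervals given here cover counting error only.

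**Figure D1:**
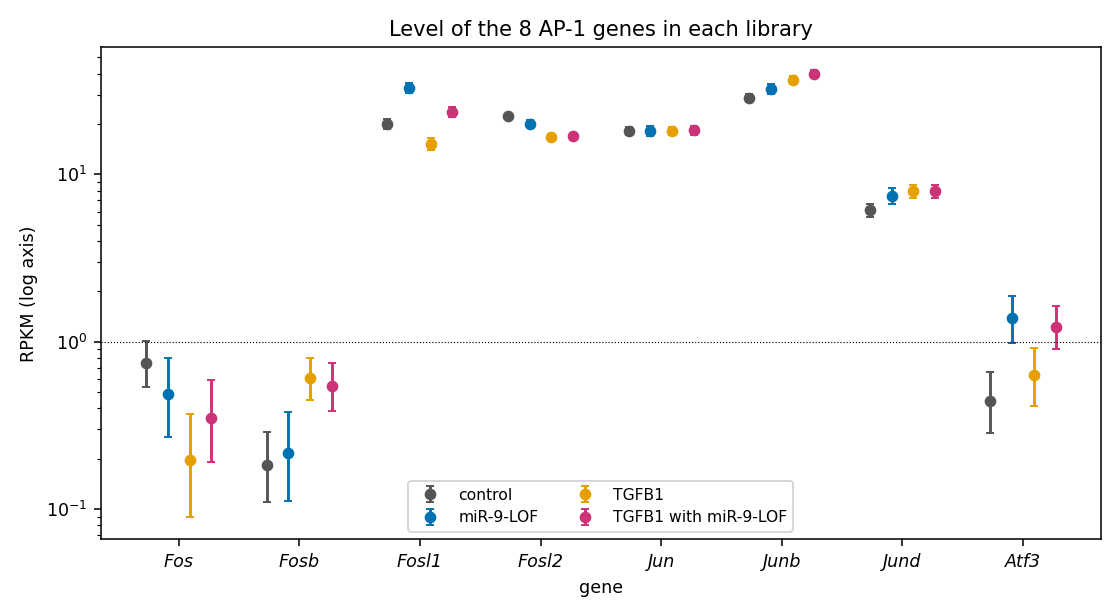
RPKM (log axis) of the 8 genes in the 4 libraries, 1 point per library with its 95% Poisson interval, and a dotted line at 1 RPKM. Fosl1 is highest in the miR-9-LOF library at 32.8 RPKM, Jun is level at 18.1 to 18.3 RPKM, and Fos, Fosb and Atf3 lie near or below 1 RPKM.

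A gene was counted as changed when its log2 ratio of RPKM + 1 reached 0.58 in either direction, a ratio of 1.49 for a gene well above 1 RPKM, with a mean of 1 RPKM or more over both libraries of the comparison. This is a limit of size and no test. For miR-9-LOF over control 5 members entered, of which Fosl1 rose and 0 fell, against 2.03% of 9291 genes that rose and 6.72% that fell. For TGFB1 over control 5 members entered and 0 passed the limit, where 2.68% of all genes rose and 2.92% fell. When both treatments were set against TGFB1 alone, Fosl1 rose and 0 of 5 fell, where 2.06% of all genes rose and 1.48% fell. When they were set against miR-9-LOF alone, 6 members entered, Atf3 among them, and 0 passed, where 7.13% of all genes rose and 2.48% fell. For both treatments over control, 0 of 5 members passed, where 2.76% of all genes rose and 4.65% fell. The first and the third comparison share no library, whereas the comparisons with control share the control library.

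The split of all genes depended on the scaling. With totals that leave out Rn45s, Mir6236 and Lars2, 571 genes rose and 138 fell with miR-9-LOF over control, in place of 189 and 624. For both treatments over TGFB1 it was 361 and 47 in place of 196 and 141, and for both treatments over control 474 and 246 in place of 263 and 444. For TGFB1 under miR-9-LOF, trimmed-mean scaling of the log ratios gave 443 and 402 in place of 666 and 232. The median over all genes with miR-9-LOF over control was −0.17 on the log2 scale, and relative to it the members stood at −0.06 (Fos), 0.21 (Fosb), 0.86 (Fosl1), 0.02 (Fosl2), 0.17 (Jun), 0.35 (Junb), 0.42 (Jund) and 0.89 (Atf3).

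Fosl1, which encodes the FOS family protein FRA-1, was the only member counted as changed with miR-9-LOF, in both such comparisons. It had 932 reads in control, 820 under miR-9-LOF, 562 under TGFB1 and 764 under both. The levels were 20.0, 32.8, 15.2 and 23.6 RPKM, so both miR-9-LOF libraries were above both libraries with the control antagomiR. Over control miR-9-LOF gave a ratio of 1.64 (95% interval 1.49 to 1.80, with its lower end at the limit) and a log2 change of 0.69, or 0.86 relative to the median of all genes. In the presence of TGFB1 the ratio was 1.56 (1.40 to 1.74) and the log2 change 0.61. Both changes stayed past the limit under each of 5 other scalings, which gave 0.76 to 0.98 and 0.68 to 0.84. In bulk RNA, more cells that express a gene and more RNA per cell cannot be told apart.

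TGFB1 went with a lower Fosl1 level in both arms, short of the limit. The ratio was 0.758 (0.682 to 0.843) over control and 0.721 (0.653 to 0.797) over miR-9-LOF. The ratio of these ratios was 0.951 (0.824 to 1.10), an interval that holds 1. With both treatments over control Fosl1 stood at 1.18 (1.07 to 1.30).

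For Ccdc85b, the gene opposite Fosl1, the ratios lay on the same side of 1 as those of Fosl1. It had 1168, 898, 774 and 877 reads, which gave 9.69, 13.9, 8.07 and 10.5 RPKM. Its ratio was 1.43 (1.31 to 1.56) with miR-9-LOF over control, 1.30 (1.18 to 1.43) with miR-9-LOF in the presence of TGFB1 and 0.833 (0.760 to 0.913) for TGFB1 over control. Where both counted transcripts hold the shared stretch, a read there counts for both genes and drops out of the difference of their counts. The overlap was taken from GENCODE, and that of the counted RefSeq transcripts was not computed. Ccdc85b had 236, 78, 212 and 113 reads more than Fosl1, which scaled to the library total was 8.61, 5.30, 9.72 and 5.94 CPM. How many of the shared reads belonged to each gene was not tested.

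The 3 genes with the profile nearest to that of Fosl1, among 4659 genes with a mean of 5 RPKM or more, were Lgals9, H2-Q2 and Gm11127. Nearness was the Euclidean distance over the 3 log2 ratios to control, over 4 libraries, and was 0.126, 0.150 and 0.151. Lgals9, which encodes galectin-9, had 34.2, 54.3, 26.0 and 43.9 RPKM. H2-Q2, a class I histocompatibility gene of a multigene family whose copies may share reads, had 6.78, 10.4, 5.25 and 8.26. No other member had a mean of 5 RPKM and a range of 0.58 over the libraries, and for these no near genes were sought.

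Fosl2, which encodes FRA-2, was the member with the longest transcript and the most reads. It had 3590, 1731, 2127 and 1884 reads in control, miR-9-LOF, TGFB1 and both, which gave 22.4, 20.1, 16.7 and 16.9 RPKM. The libraries with TGFB1 were the lowest. The ratio of TGFB1 over control was 0.745 (0.706 to 0.786), a log2 change of −0.40 that stayed between −0.45 and −0.39 under the other scalings. Over miR-9-LOF it was 0.842 (0.789 to 0.900). The ratio of miR-9-LOF over control was 0.898 (0.848 to 0.951), but the sign of this change depended on the scaling and was positive in 4 of 5. In the presence of TGFB1 the miR-9-LOF ratio was 1.02 (0.954 to 1.08).

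The balance within the FOS family shifted with miR-9-LOF, in a comparison of levels per length within each library. Multiplying a library by 1 factor does not change it, but it includes the reads Fosl1 shares with Ccdc85b. Centring within groups of transcript length does change it. With miR-9-LOF over control the log2 change was then 0.76 for Fosl1 and 0.10 for Fosl2, in place of 0.69 and −0.15. Fosl1 made up 46.2% of the summed FOS family level in control and 46.5% after TGFB1, and 61.2% and 57.0% in the corresponding miR-9-LOF libraries. The ratio of the Fosl1 to the Fosl2 level was 0.895 in control, 1.63 under miR-9-LOF, 0.911 under TGFB1 and 1.40 under both. The summed FOS family level was 43.3, 53.6, 32.6 and 41.5 RPKM.

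Fos, the founding member, was scarce. It had 43 reads in control, 15 under miR-9-LOF, 9 under TGFB1 and 14 under both, at 0.746, 0.485, 0.196 and 0.350 RPKM. The control library was the highest, and all levels were under 1 RPKM. The ratio of TGFB1 over control was 0.263 (0.113 to 0.547), which on the log2 scale was −0.55 with 1 added to the RPKM and −1.51 with 0.1 added. With totals that leave out the 3 abundant transcripts the former was −0.64. For miR-9-LOF it was 0.650 (0.335 to 1.19), a difference that was not detectable at this depth.

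Fosb, a close relative of Fos, was also low, but its highest levels were those with TGFB1. It had 19, 12, 50 and 39 reads, at 0.184, 0.216, 0.608 and 0.544 RPKM, and both libraries with TGFB1 were above both without. The ratio of TGFB1 over control was 3.31 (1.92 to 5.94), and over miR-9-LOF it was 2.52 (1.29 to 5.28). The log2 change of 0.44 over control became 1.32 when 0.1 in place of 1 was added to the RPKM. The second Fosb transcript had 16, 10, 43 and 37 reads, most of which can be the same reads. With miR-9-LOF the ratio was 1.18 (0.521 to 2.55) without and 0.894 (0.573 to 1.39) with TGFB1.

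**Figure D2:**
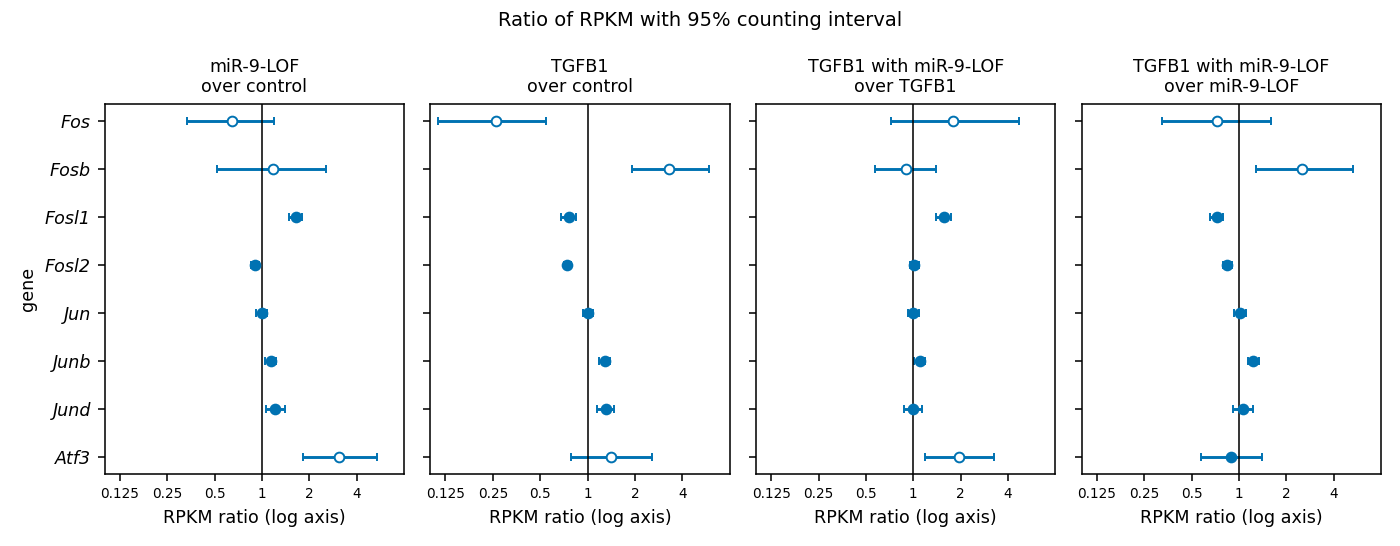
Ratio of RPKM (log axis) for the 8 genes in 4 comparisons with the 95% exact binomial interval of the counts, filled where the gene reached a mean of 1 RPKM over both libraries and open where it did not. Fosl1 lies above 1 in both miR-9-LOF comparisons (1.64 and 1.56), Jun lies on 1, and the open points of Fos, Fosb and Atf3 have wide intervals.

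Jun, the JUN family member that forms the classical dimer with FOS, was nearly constant. It had 1585, 848, 1270 and 1110 reads, at 18.2, 18.1, 18.3 and 18.3 RPKM. No library stood apart. The ratio was 0.996 (0.916 to 1.08) with miR-9-LOF over control, 1.01 (0.935 to 1.09) with TGFB1 over control and 1.00 (0.924 to 1.09) with miR-9-LOF in the presence of TGFB1. This evenness held for the deposited scaling, and under the 5 others the log2 change with miR-9-LOF over control was 0.11 to 0.28.

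Junb, a JUN protein that often restrains growth, was higher with TGFB1 in both arms, short of the limit. It had 1438, 876, 1465 and 1400 reads, at 28.6, 32.4, 36.6 and 40.1 RPKM. The control library was the lowest and the library with both treatments the highest. The ratio of TGFB1 over control was 1.28 (1.19 to 1.38) and over miR-9-LOF 1.24 (1.14 to 1.35). With miR-9-LOF it was 1.13 (1.04 to 1.23) over control and 1.10 (1.02 to 1.18) in the presence of TGFB1. The log2 change with miR-9-LOF over control, 0.18, was 0.29 to 0.47 under the other scalings. For both treatments over control the ratio was 1.40 (1.30 to 1.51) and the log2 change 0.47, which passed the limit under 2 of 5 other scalings.

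Jund, the JUN family gene usually expressed in resting cells, had 481, 315, 499 and 433 reads, at 6.10, 7.44, 7.96 and 7.92 RPKM. Its 2 transcripts had identical counts. The control library was the lowest and the other 3 lay together. The ratio over control was 1.22 (1.05 to 1.41) with miR-9-LOF, 1.30 (1.15 to 1.48) with TGFB1 and 1.30 (1.14 to 1.48) with both. The log2 change with miR-9-LOF, 0.25, was 0.36 to 0.52 under the other scalings. Summed over the JUN family the level was 52.8, 57.9, 62.8 and 66.3 RPKM, of which Junb made up 54.1%, 55.9%, 58.2% and 60.4%.

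Atf3, a stress-induced factor that pairs with JUN proteins and can repress its targets, was low but was higher in both miR-9-LOF libraries. It had 24 reads in control, 40 under miR-9-LOF, 27 under TGFB1 and 46 under both, at 0.444, 1.38, 0.628 and 1.23 RPKM. The intervals of the 2 miR-9-LOF libraries did not overlap that of control. That of both treatments (0.899 to 1.64 RPKM) did overlap that of TGFB1 (0.414 to 0.914). With miR-9-LOF over control the ratio was 3.10 (1.83 to 5.38) and the log2 change 0.72, and in the presence of TGFB1 they were 1.95 (1.19 to 3.27) and 0.45. With 0.1 in place of 1 added to the RPKM these changes were 1.44 and 0.87. Atf3 missed the filter of 1 RPKM in both comparisons and was not counted among the members that rose. With TGFB1 the ratio was 1.41 (0.786 to 2.56) over control and 0.890 (0.570 to 1.40) over miR-9-LOF.

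**Figure D3:**
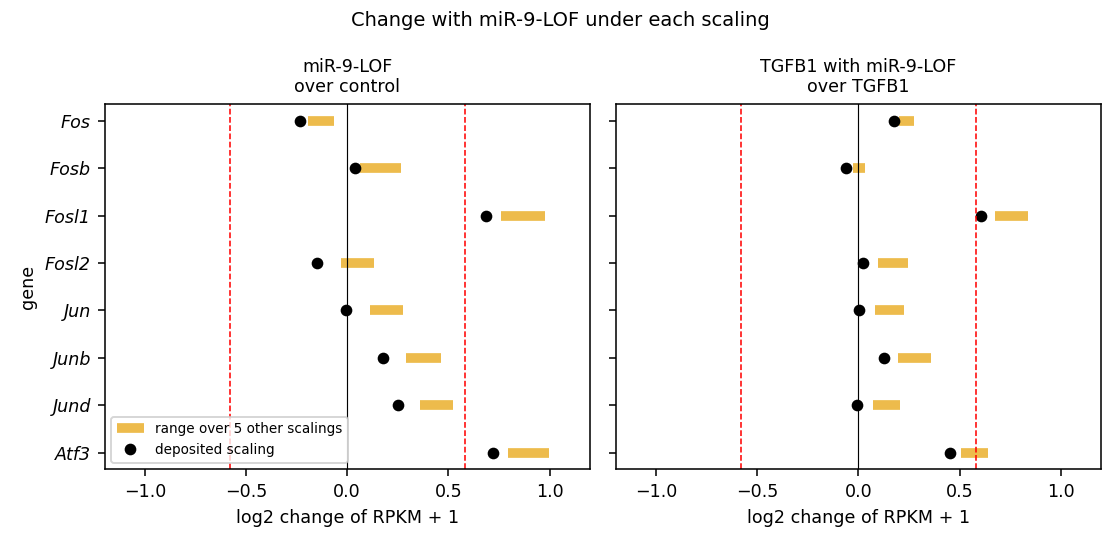
Log2 change of RPKM + 1 with miR-9-LOF without (left) and with TGFB1 (right), as points for the deposited scaling and bars for the range over 5 other scalings, with dashed lines at the limit of 0.58. Fosl1 stays past the limit (0.76 to 0.98 on the left, 0.68 to 0.84 on the right), whereas Jun moves from 0.00 to between 0.11 and 0.28 on the left.

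The partners and regulators of AP-1 mostly stayed within the limit, as did most of all genes. Over all genes, 2.03% to 7.13% rose and 1.48% to 6.72% fell in the 5 comparisons. The counts of calls here and in the next paragraph stand beside these shares, on short lists. Of the related bZIP factors 15 or 16 entered each comparison, and Cebpb, a C/EBP factor, fell with TGFB1 over control, from 72.1 to 40.6 RPKM with a log2 change of −0.81. No other call was made in this list in the 5 comparisons. The list median was −0.33 with miR-9-LOF over control, against −0.17 for all genes. Atf4, an abundant stress factor, had 70.2 RPKM in control and 64.3 after miR-9-LOF (ratio 0.917, 0.859 to 0.979). Its log2 change of −0.12 lay above the median of all genes, so relative to that median it did not fall. Jdp2, an inhibitor that dimerises with JUN, had 17.6 and 13.8 RPKM (ratio 0.785, 0.686 to 0.896, log2 change −0.33). The ratios of Atf4 and Jdp2 are for the deposited scaling.

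Among the kinases upstream of AP-1 0 of 16 or 17 passed in 4 comparisons, though with totals that leave out the 3 abundant transcripts 1 rose for both treatments over control. For both treatments over miR-9-LOF Map2k4, a kinase that activates JNK, rose from 2.91 to 4.89 RPKM (log2 change 0.59, a call lost with the same totals). Of the factors that bind AP-1 gene promoters, Tcf7l2 of the Wnt pathway fell with miR-9-LOF over control (log2 change −0.69). Smad3, which transmits TGFB1 signals, fell with TGFB1 over control from 12.8 to 7.27 RPKM (−0.74). With both treatments over control Smad3 fell to 7.11 RPKM (−0.77). Of the AU-rich element decay factors Hnrnpd fell with miR-9-LOF over control (−0.59), and 14 others that entered did not pass. Of the genes for turnover of FOS and JUN proteins the ubiquitin ligase Nedd4 fell in the same comparison, from 60.8 to 39.2 RPKM (−0.62). The calls on Tcf7l2, Hnrnpd and Nedd4 were lost with totals that leave out the 3 abundant transcripts. In the comparisons over miR-9-LOF and over control that hold both treatments, the deadenylase subunits Cnot6 (log2 change 0.78) and Cnot7 (0.59) and the corepressor Ncor1 (0.60, a call lost with the same totals) rose over miR-9-LOF, and the deadenylase subunit Pan3 rose over control (0.59). The coactivators of AP-1 had 0 calls among 7 or 8 genes in each comparison.

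Of the other immediate early genes, 2 of 24 fell with miR-9-LOF over control, beside 6.72% of all genes. They were Dusp1, a MAP kinase phosphatase (log2 change −0.77), and Ccn1, a matricellular gene, which went from 224 to 134 RPKM (−0.74). With the 3 abundant transcripts left out of the totals, 2 rose and 0 fell in this comparison, beside 6.15% and 1.49% of all genes. With TGFB1 over control, 2 of 25 rose, beside 2.68% of all genes. These were Egr2, a zinc finger factor that reached the filter through its TGFB1 level (0.814 to 4.01 RPKM, 1.46), and Ptgs2, the inducible prostaglandin synthase (13.1 to 25.5 RPKM, 0.92). Dusp1 fell (−0.71). Egr1 had 14.9, 14.8, 11.1 and 15.7 RPKM in control, miR-9-LOF, TGFB1 and both, and passed in none of the first 3 comparisons. With miR-9-LOF in the presence of TGFB1, Ccn1 (−0.66) and Gadd45g (−0.63) fell, of 25, beside 1.48% of all genes. With the 3 abundant transcripts left out of the totals 3 rose and 0 fell, beside 3.79% and 0.493% of all genes. Over miR-9-LOF both treatments gave 3 rises and 0 falls of 25, beside 7.13% and 2.48% of all genes. Over control they gave 2 rises and 2 falls, beside 2.76% and 4.65% of all genes.

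Genes known as AP-1 targets changed in both directions with TGFB1. Of 17 that entered, 7 rose and 4 fell with TGFB1 over control, beside 2.68% and 2.92% of all genes. The list was chosen with earlier results of these data known, so these shares describe it and are not independent evidence. The list median was 0.41 against −0.01 for all genes. Vegfa, the endothelial growth factor, had 11.9 RPKM in control and 39.0 after TGFB1 (log2 change 1.64). Spp1, which encodes osteopontin, had 77.2 and 232 (1.58). Timp1, the metalloproteinase inhibitor, had 103 and 223 (1.10), and Mmp9, a matrix metalloproteinase, had 0.554 and 2.23 (1.06) and reached the filter only through its TGFB1 level. Those that fell were Ccnd1, the cyclin D1 gene, from 55.4 to 27.9 RPKM (−0.96), the proliferins Prl2c2 (−0.84) and Prl2c3 (−0.82), and Plau, the urokinase gene (−0.582). The Plau value lay barely past the limit of 0.58, and relative to the median of all genes it lay inside it. Over miR-9-LOF, 6 of 17 rose and 3 fell with TGFB1, and for both treatments over control 9 of 17 rose and 3 fell. Over all genes these shares were 7.13% and 2.48%, and 2.76% and 4.65%. Ptgs2 is counted both here and among the early genes.

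With miR-9-LOF 3 of 16 AP-1 targets rose over control and 3 of 17 in the presence of TGFB1, beside 2.03% and 2.06% of all genes, and 2 of the 3 were the copies Prl2c2 and Prl2c3. This is the same list, chosen with earlier results of these data known, so these shares too are not independent evidence. Prl2c2, a growth factor of the prolactin family first found in growing mouse fibroblasts, had 5.35 RPKM in control, 54.4 under miR-9-LOF, 2.55 under TGFB1 and 33.0 under both. The ratio was 10.2 (8.39 to 12.4) over control and 13.0 (9.60 to 17.9) in the presence of TGFB1. Prl2c3, a near-identical copy that can share its reads, had 4.88, 51.6, 2.33 and 29.9 RPKM. Hmox1, the heme oxygenase gene, had 36.7, 126, 40.1 and 97.5 RPKM, with log2 changes of 1.75 and 1.26. These 3 genes and Fosl1 were each higher in both miR-9-LOF libraries than in both control antagomiR libraries. Plau fell over control (−0.58), a call that was lost with totals that leave out the 3 abundant transcripts. The median of the list was −0.11 and −0.09 in these comparisons, against −0.17 and −0.08 for all genes.

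**Figure D4:**
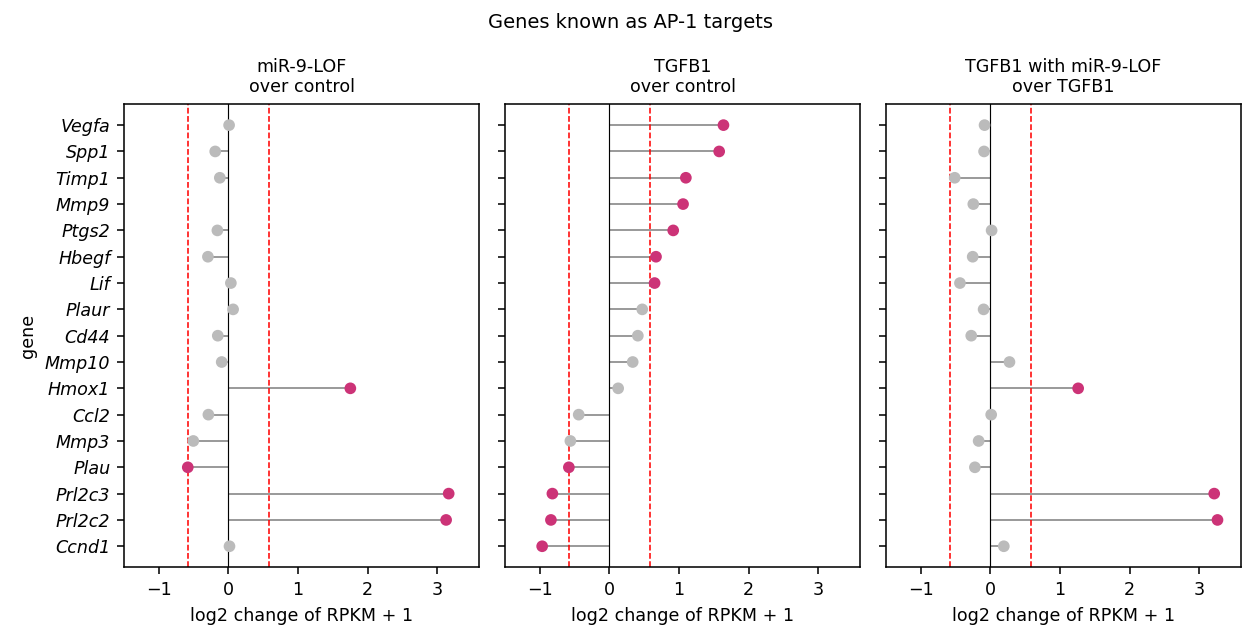
Log2 change of RPKM + 1 of the genes known as AP-1 targets in 3 comparisons, ordered by the change with TGFB1, with dashed lines at the limit of 0.58 and coloured points past it. With TGFB1 over control 7 rose and 4 fell, and with miR-9-LOF Prl2c2, Prl2c3 and Hmox1 rose in both comparisons; a gene without a point in the left panel missed the filter of 1 RPKM.

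The change with TGFB1 was also set against itself between the 2 antagomiR arms. Over 9467 genes the median difference of the log2 changes (miR-9-LOF arm minus control arm) was 0.08 and the quartiles −0.10 and 0.27. For Jund it was −0.26, from 0.34 in the control arm and 0.08 in the miR-9-LOF arm, with a ratio of ratios of 0.816 (0.673 to 0.988). For Fosl2 it was 0.17, from −0.40 and −0.23, with a ratio of ratios of 1.13 (1.04 to 1.23), inside these quartiles, and centred within groups of transcript length it was 0.041. For Jun (1.01, 0.896 to 1.13) and Junb (0.966, 0.864 to 1.08) the interval held 1, as it did for Fos (2.75, 0.987 to 7.64), Fosb (0.760, 0.330 to 1.75) and Atf3 (0.629, 0.314 to 1.26), where it was wide.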

How the data were processed

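Total RNA libraries of 4 conditions (1 each) were compared. Single-end reads had been trimmed by the authors with Trimmomatic (0.36), mapped to mm10 by Bowtie2 and summarised over RefSeq exons with HOMER, without regard to strand. The deposited counts are unscaled and whole. The authors computed RPKM in edgeR and deposited it with 1 added, which was subtracted here. Deposited lengths are in nucleotides. Versions of Bowtie2, HOMER and edgeR were not given in the sources used. The authors' log2 fold changes to control and RPKM sums were not used.

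Log2 ratios of RPKM + 1, filtered at a mean of 1 RPKM, were computed with Python 3.11.15, pandas 2.3.3 and SciPy 1.17.1. Ratios carry exact 95% binomial (Clopper-Pearson) intervals, levels exact Poisson intervals and ratios of ratios Wald intervals. With 1 library per group no p-value was computed. The code was tested on simulated data with 200 changed genes. The 3 nearest genes to each member with a mean of 5 RPKM and a range of 0.58, and at most 4 genes per list, direction and comparison, were named, with reference genes in list order. Ccdc85b was named after its overlap was seen. Members and gene lists were chosen with earlier results of these data known. Alternatives covered scaling, pseudocount, filter, limit, transcript choice and length. A gene of the AP-1 target list is not reported here.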

Additional observations from a re-analysis of the deposited data

Results flagged for a closer look

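Each result here had opposite directions under the same contrast in both arms under the deposited scaling, in single libraries, and the differences were not tested between conditions. The log2 change with miR-9-LOF was −0.23 without and 0.17 with TGFB1 for Fos (difference 0.41), 0.04 and −0.06 for Fosb (−0.10), −0.15 and 0.02 for Fosl2 (0.17), 0.25 and −0.01 for Jund (−0.26), and 0.00 and 0.00 for Jun (0.0077, both within counting error of 0). The change with TGFB1 in Atf3 was 0.17 in the control arm and −0.10 in the miR-9-LOF arm (−0.27). The counting intervals of the ratio of ratios held 1 for Fos, Fosb, Jun and Atf3. Several of the opposite signs depended on the scaling. Under the 5 other scalings the miR-9-LOF change with TGFB1 was 0.07 to 0.21 for Jund, positive like that without TGFB1, and for Jun it was 0.11 to 0.28 without and 0.08 to 0.23 with TGFB1. For Fosl2 without TGFB1 it was positive in 4 of 5, and for Fosb with TGFB1 it kept its sign in 2 of 5. For Fos and Atf3 the signs held in all 5.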

How the results depend on the processing

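Over the alternatives run (scaling, pseudocount, filter, limit and transcript choice), 94 counts of members past the limit were unchanged and 6 moved. With miR-9-LOF over control the count of 1 became 2 (Fosl1 and Atf3) without a filter and 0 with a limit of 1, and in the presence of TGFB1 the count of 1 became 0 with a limit of 1. For both treatments over control the count of 0 became 1 with the upper quartile (Junb), with totals that leave out Rn45s, Mir6236 and Lars2 (Junb), and without a filter (Atf3). Of the log2 changes of members, 245 moved by less than their counting interval and 35 by more. The difference of the TGFB1 change between the arms moved for Fosl2 only, from 0.17 to 0.041 when centred within groups of transcript length, and 55 others stayed within their intervals. The cause was not tested. No paired analysis by replicate number was made because the labels give none, and an additive fit over the 4 libraries was not run. Depth limited Fos, Fosb and Atf3, with 9 to 50 reads per library.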
